A study of Mus musculus with 11 samples.

Results

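The RNA of enterochromaffin (EC) cells and L cells, both hormone-secreting cells of the colon lining, was compared in mice given estradiol benzoate (EB), an ester of the oestrogen estradiol. The members are every EB library of the series, 4 of EC cells and 3 of L cells, 7 of the 11 libraries in all, taken by their labels. The other 4 libraries, 2 of each cell type, came from mice given the sesame oil vehicle and enter only where they are named. All donors were ovariectomised C57BL/6 females aged 10 to 14 weeks. The L cells came from Cck-Cre;R26LSL-tdTomato mice, in which Cre driven by the cholecystokinin gene turns on a red fluorescent protein, so that L cells were collected through a gene that is not specific to them. They were isolated 4 hours after treatment, with about 7000 cells collected per treatment group. The EC cells came from a line that the labels call ECFLTG without spelling out its alleles, at 500 or more cells per sample, and no time after treatment is stated for them. Cell type, mouse line, number of cells and deposited table differ together between the EC and L libraries and cannot be told apart. The labels do not say that libraries came from separate mice, so each p-value below reflects no more than the spread among these libraries, part or all of which may be technical.

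EC cells make serotonin from tryptophan, pack it into dense-core granules together with chromogranins, and release it onto sensory nerve endings and into the gut wall. L cells secrete peptide YY and, from the proglucagon gene, the glucagon-like peptides, and in the distal colon also insulin-like peptide 5. Both belong to the enteroendocrine lineage and share secretory machinery and transcription factors, while colonocytes absorb water and salts and goblet cells secrete mucus.

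The values are counts per 1000000 reads (CPM): reads on genes, recovered as whole numbers from the deposited normalised counts and scaled by the library's total, since the EC and L tables had been normalised separately. The EC libraries held 5589886 to 6808311 reads on genes and the L libraries 27658579 to 31449447, so low transcripts were measured more finely in L libraries. Across 10898 kept genes, those at 5 or more CPM in at least 3 of the 7 libraries, log2 values of 2 L libraries correlated with r of 0.976 to 0.986. Between 2 EC libraries r was 0.544 to 0.764, and between an EC and an L library 0.496 to 0.677, so the EC libraries were much less alike. EC libraries 1 to 3 had r of 0.641 to 0.677 with the L libraries and EC library 4 had 0.496 to 0.507, the lowest, while r was 0.718 between EC libraries 1 and 2 and 0.764 between 3 and 4. The median SD of a gene's log2 value was 0.950 among the EC libraries and 0.164 among the L libraries. Ribosomal RNA also differed, with the mitochondrial large rRNA mt-Rnr2 taking 1.51% to 8.30% of reads in EC libraries and 0.316% to 0.414% in L libraries.

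The EC label was borne out by EC transcripts, whereas the L-cell hormones were not higher in CPM in the L libraries. Tph1 encodes the tryptophan hydroxylase that begins serotonin synthesis outside the brain. It stood at 635, 779, 5353 and 6898 CPM in EC libraries 1 to 4 and at 1.23, 11.2 and 16.1 in L libraries 1 to 3. The groups lay far apart, and within the EC group libraries 1 and 2 were several times lower than 3 and 4. In log2(CPM + 1), the scale of every difference given here, which understates the change of low genes, Tph1 was 8.06 ± 1.0 (SE) higher in EC libraries. Its adjusted p was 0.00482 by limma with Benjamini-Hochberg adjustment over all kept genes, the test and adjustment behind every adjusted p below unless another is named. Chga, the granule protein chromogranin A, was at 2455, 3209, 13602 and 31116 CPM in the EC libraries and at 15.6, 80.9 and 91.2 in the L libraries, a difference of 7.25 ± 0.96 and an adjusted p of 0.00531. Here too the 4 EC values were all above the 3 L values, with EC libraries 1 and 2 the lowest of the 4. Because these are bulk libraries, fewer cells of a type and less of a transcript per cell cannot be told apart.

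Pyy, the peptide YY precursor, was at 813, 492, 3837 and 799 CPM in the EC libraries and at 401, 1200.3 and 1686 in the L libraries. The groups overlapped, EC library 3 was the highest of all 7, and the difference of 0.17 ± 0.74 did not pass the test (adjusted p = 0.9). Gcg, the proglucagon gene, was at 261, 1388, 5041 and 844 CPM in EC libraries and at 103, 350.4 and 858 in L libraries, again with overlapping groups and a difference of 1.82 ± 0.99 that did not pass (adjusted p = 0.255). Car1, the carbonic anhydrase that marks colonocytes, was at 17234, 16701, 4632 and 1863 CPM in EC libraries and at 34148, 37239.6 and 31491 in L libraries. Every L library was above every EC library, and EC libraries 1 and 2 were nearer to the L libraries than 3 and 4 were. Over the 7 libraries the difference of -2.28 ± 0.91 did not pass (adjusted p = 0.136), while without EC libraries 1 and 2 it was -3.54 ± 0.49 with an adjusted p of 0.0041. Those 2 libraries stand out by the markers themselves, lowest of the EC group in Tph1 and Chga and highest in Car1. Every fit without them, here and below, is therefore a description, and its p-values give no independent support. In mm10, Tph1 lies on chromosome 7, 46644641 to 46672537, Chga on chromosome 12, 102554941 to 102565027, Pyy on chromosome 11, 102106676 to 102107832, Gcg on chromosome 2, 62474530 to 62483653 and Car1 on chromosome 3, 14766214 to 14808365.

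**Figure D1:**
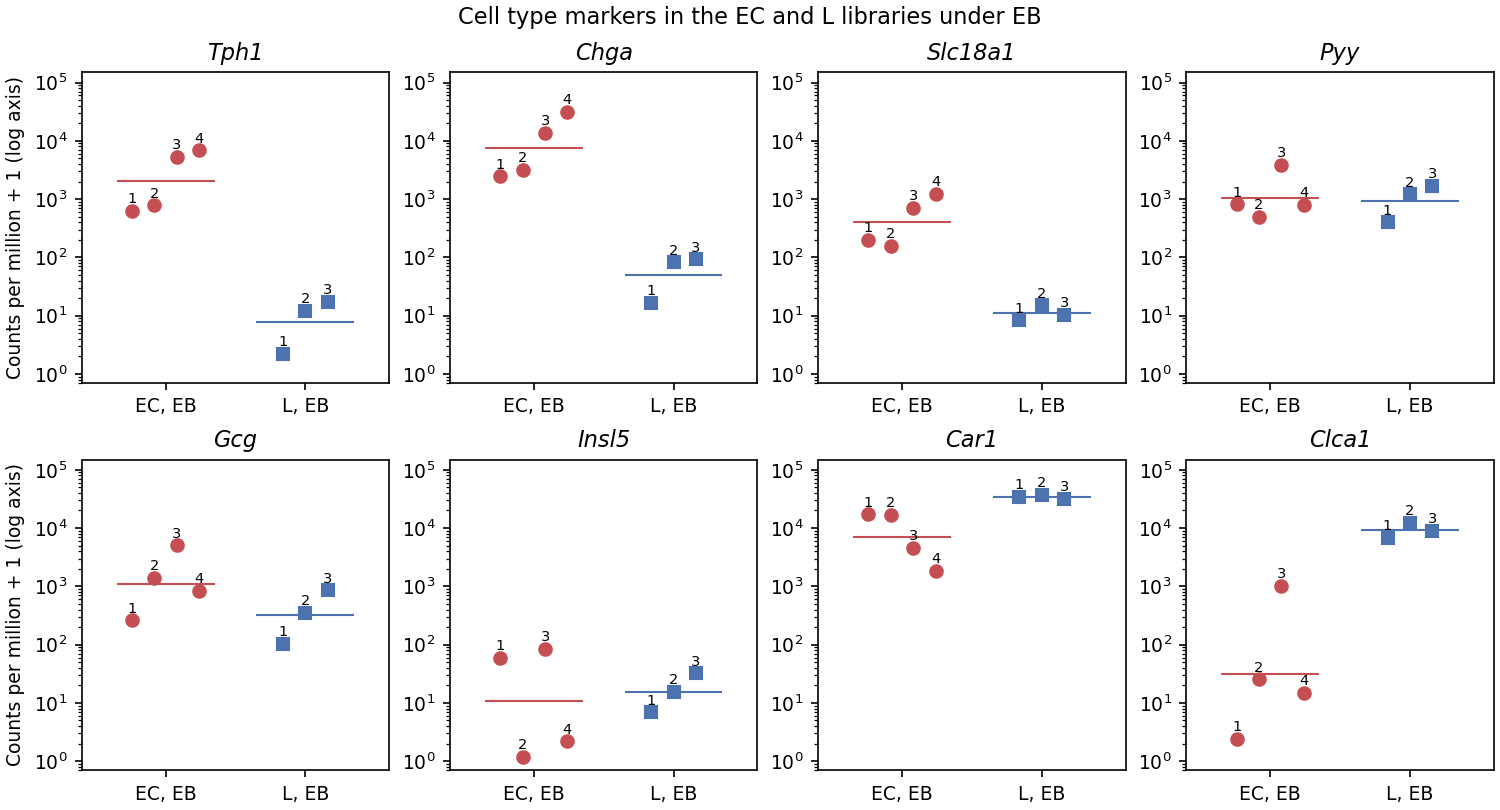
CPM + 1 (log axis) of 8 marker genes in each EC and L library under EB; numbers are replicate labels and bars are means of the log values. Tph1, Chga and Slc18a1 separate the groups, Pyy, Gcg and Insl5 overlap, and Car1 and Clca1 are higher in every L library.

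Ratios of 2 transcripts inside a library do not depend on how libraries are scaled, apart from the 1 CPM added to each. The log2 ratio of Pyy to Tph1 was 0.36, -0.66, -0.48 and -3.11 in the EC libraries and 7.5, 6.63 and 6.63 in the L libraries. L libraries thus held far more Pyy per Tph1 than EC libraries did, though not more Pyy in CPM. The ratio of Gcg to Chga was -3.23, -1.21, -1.43 and -5.20 in the EC libraries and 2.65, 2.10 and 3.22 in the L libraries. For Tph1 to Chga the values were much closer, with a mean of -1.88 ± 0.37 (SD, n = 4) in EC libraries and -2.69 ± 0.24 (SD, n = 3) in L libraries, and the groups still did not overlap. All 6 ratios computed separated the groups, each with p = 0.0571 in an exact two-sided permutation test, which is the smallest p that 4 against 3 libraries can give, and the same value after adjustment over the 6. In vehicle libraries the Pyy to Tph1 ratio was -2.66 and 0.07 for EC cells and 7.0 and 5.41 for L cells, so the cell types were also apart there.

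Across all genes, 1358 of the 10898 kept passed the test between EC and L libraries, which is 12.5%. Of these, 634 were higher in EC libraries (5.82% of kept genes) and 724 were lower (6.64%), and the groups did not overlap in any of the 1358. The counts called in each list below are read against these percentages. At an unadjusted p under 0.05 there were 3242 genes, and 34.0% of kept genes had groups that did not overlap. The median difference of all kept genes was -0.20, and other scalings moved it to between -0.30 and -0.09, so the medians below are read against it. The filter kept 901 genes through EC libraries alone, with every L library under 5 CPM, and 94 through L libraries alone. Such genes had to differ towards the group that kept them, so counts and medians of lists that hold them describe those lists and support no direction. With only 3 L libraries, the count fell to 186, 142 or 124 when L library 1, 2 or 3 was left out, and 118 calls (69 higher, 49 lower) held without each of the 7 libraries in turn. Leaving out EC library 1 or 2 raised the number called higher to 1079 or 983, and without both 4650 genes (42.7%) were called, 2749 higher (25.2%) and 1901 lower (17.4%). Of the 1358, 1324 were also called in the same direction without those 2 libraries. None of the 1358 had the opposite sign, which was fixed in advance, since their groups did not overlap. The 1324 are 97.5% of the first list and 28.5% of the second.

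**Figure D2:**
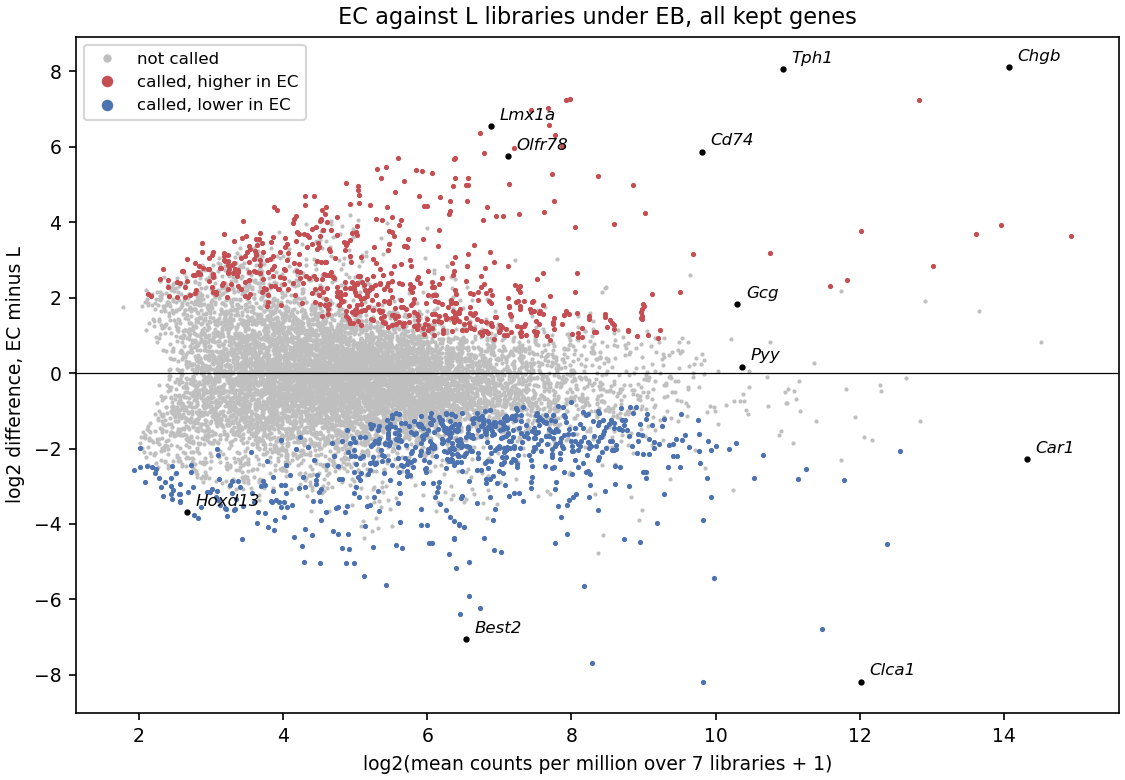
Log2 difference between EC and L libraries (vertical) against mean level over the 7 libraries (horizontal) for 10898 kept genes. Red points are the 634 genes called higher in EC libraries, blue points the 724 called lower, grey points genes not called, and black points are named genes whether called or not: Tph1 and Chgb lie near 8, Clca1 near -8, Pyy near 0.

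Among the named genes, the calls of Tph1, Chga, Chgb, Slc18a1, Lmx1a, Tac1, Snap25, Cadps, Rph3al, Insm1, Nkx2-2, Pax4, Celf3, Cryba2, Wif1, Slc38a11, Olfr78, Cd74 and H2-Aa (higher in EC libraries) held without each library in turn. So did those of Best2, Slc37a2, Rasd2, Car2, Tff3 and Dusp1 (lower). Each other call named below ended when at least 1 of L libraries 1, 2 and 3 was left out. Of the calls that held, those of Lmx1a, Tac1, Cadps, Insm1, Nkx2-2, Pax4, Cryba2, Wif1, Slc38a11 and Olfr78 had passed the filter through EC libraries alone. Those of Best2, Slc37a2 and Rasd2 had passed it through L libraries alone. The filter thus fixed the direction of all these genes.

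The genes of serotonin synthesis and handling did not move as a block. Of 13 listed, 11 passed the filter, 2 were called higher in EC libraries and 2 lower, with a median difference of 0.27. With EC libraries 1 and 2 left out, 8 of the 11 were called higher and 3 lower, against 25.2% and 17.4% of all kept genes. Slc18a1, the transporter VMAT1 that loads serotonin into granules, was at 200, 156, 701 and 1231 CPM in EC and 7.34, 14.1 and 9.23 in L libraries, a difference of 5.22 ± 0.70 (adjusted p = 0.00559). Its relative Slc18a2 (VMAT2), which missed the filter, was at 1.43, 0.178, 6.8 and 9.25 in EC and 3.47, 3.56 and 2.52 in L libraries, with overlapping groups. Ddc, the decarboxylase that completes serotonin synthesis, was at 91.6, 109, 843 and 1153 CPM in EC and 84.6, 57.7 and 69.7 in L libraries. EC libraries 3 and 4 were well above the L libraries while 1 and 2 were close to them, and the difference of 2.16 ± 0.89 did not pass over 7 libraries (adjusted p = 0.144). It was 3.80 ± 0.23 without EC libraries 1 and 2, with an adjusted p of 0.000936. Tph2, the neuronal hydroxylase, had no read in any EC library and at most 0.145 CPM in an L library.

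The 2 genes called lower were Slc6a4 and Maoa, and Slc6a4 had passed the filter through L libraries alone, which fixes its direction. Slc6a4, the serotonin reuptake transporter, was at 0, 0, 4.11 and 0 CPM in EC and 22.9, 18.2 and 12.4 in L libraries, a difference of -3.61 ± 0.77 (adjusted p = 0.0208). Only EC library 3 held any reads of it, and neither edgeR (adjusted p = 0.134) nor DESeq2 (adjusted p = 0.0514) called it. Maoa, the monoamine oxidase that degrades serotonin, was at 385, 537, 145 and 92.5 CPM in EC and 1483, 1208 and 1232 in L libraries, -2.50 ± 0.57 on the log2 scale (adjusted p = 0.026), and edgeR did not call it (adjusted p = 0.0917). EC libraries 3 and 4 were the lowest. Colonocyte markers were also lower in EC libraries, as given below, and their part in the Maoa difference was not tested. Maob, the sister oxidase, was at 0, 3.38, 54.6 and 64.6 in EC and 38.2, 35.8 and 27.9 in L libraries and did not pass (difference -1.63 ± 1.38, adjusted p = 0.464). The enzymes and recycling proteins of the tetrahydrobiopterin cofactor, which Tph1 needs, gave no call over the 7 libraries. Gch1, which starts cofactor synthesis, was at 70.7, 33.8, 65 and 119.6 CPM in EC and 40.7, 26 and 26.4 in L libraries (adjusted p = 0.144), and Pts, Spr, Pcbd1 and Qdpr had adjusted p of 0.682, 0.0918, 0.202 and 0.796. All 5 were called without EC libraries 1 and 2, Spr lower and the others higher in EC libraries, with adjusted p of 0.00255 (Pcbd1) to 0.0197 (Gch1).

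Of 15 EC-cell markers, 12 passed the filter and 7 were called higher, none lower, with a median difference of 4.40, and 3 of the 7 had passed the filter through EC libraries alone. The 7 were Tph1, Slc18a1, Lmx1a, Fev, Tac1, Chga and Chgb. Lmx1a, a LIM homeodomain factor that acts upstream of Tph1 in mouse EC cells, was at 28.1, 75.6, 324 and 391 CPM in EC and 0.325, 0.668 and 0.224 in L libraries, a difference of 6.54 ± 0.90 (adjusted p = 0.00583). Fev, an ETS factor of serotonin-producing cells, was at 4.83, 7.64, 31.8 and 23.2 in EC and 0.108, 0 and 0.511 in L libraries, a difference of 3.57 ± 0.76 (adjusted p = 0.0208). Tac1, the substance P precursor, was at 45.4, 49.8, 238 and 431 in EC and 1.27, 1.14 and 1.21 in L libraries, a difference of 5.82 ± 0.81 (adjusted p = 0.0059). For these 3 genes the order within the EC group put libraries 3 and 4 above libraries 1 and 2. Piezo2, the mechanically gated channel of EC cells, was at 4.83, 13.7, 53.8 and 12.6 CPM in EC and 1.45, 2.73 and 3.0 in L libraries, apart but not past the test (difference 2.26 ± 0.80, adjusted p = 0.0978). Trpa1, an irritant channel, had reads in EC library 2 (0, 0.533, 0 and 0 CPM) and in L library 1 (0.0723, 0 and 0) and missed the filter. Adra2a, an inhibitory adrenergic receptor, was at 27.5, 16.5, 2.06 and 0.294 in EC and 11.5, 7.6 and 13.9 in L libraries, with EC libraries 1 and 2 above 3 and 4 (adjusted p = 0.651). Reg4, a secreted lectin of enteroendocrine and other secretory cells, was at 24.3, 127, 1515 and 667 in EC and 425, 1922 and 1181 in L libraries, without passing the test (adjusted p = 0.31). Rxfp4, the receptor for insulin-like peptide 5, and Ucn3, urocortin 3, missed the filter. Rxfp4 was read in EC libraries 3 and 4 (0, 0, 9.02 and 4.85) and barely in L libraries (0.0362, 0.286 and 0), and Ucn3 reached 3.01 CPM in EC library 3 alone.

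None of the 6 L-cell hormones passed the test in either direction over the 7 libraries. Their median of -0.16 was 0.32 with quantile scaling and 1.5 without EC libraries 1 and 2, where 2 were called higher in EC libraries, Cck and Nts. Insl5, insulin-like peptide 5, was at 58.5, 0.178, 83.6 and 1.18 CPM in EC and 5.93, 14.3 and 31.4 in L libraries, with EC libraries both above and below the L range (adjusted p = 0.855). Cck, whose Cre labelled the L cells, was at 17.9, 16.2, 136 and 32.3 in EC and 2.93, 7.0 and 14.1 in L libraries. All 4 EC values exceeded the 3 L values, and the difference of 2.16 ± 0.82 did not pass (adjusted p = 0.121), though without EC libraries 1 and 2 it was 3.12 ± 0.80 with an adjusted p of 0.0272. Nts, neurotensin, was at 0.537, 25.6, 749 and 335 in EC and 52.4, 147 and 207 in L libraries, nearly absent from EC library 1 and highest in 3. Its difference of -1.06 ± 1.86 over the 7 libraries (adjusted p = 0.74) was 2.09 ± 0.65 without EC libraries 1 and 2 (adjusted p = 0.047). Ppy, pancreatic polypeptide, was read in EC library 3 alone, at 0, 0, 54.3 and 0 in EC and 31.9, 57.4 and 92.8 in L libraries (difference -4.37 ± 1.41, adjusted p = 0.0763). Summed, the 6 took 0.115%, 0.192%, 0.99% and 0.201% of reads in EC libraries and 0.0598%, 0.178% and 0.289% in L libraries. The groups overlapped (exact two-sided permutation p = 0.629).

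Of 14 other enteroendocrine hormones, 5 passed the filter and 1, Tac1, was called. Of the 5, 2 had passed through EC libraries alone, Tac1 among them, which fixes its direction. Sst, somatostatin of D cells, was at 257, 760.4, 307 and 91.4 CPM in EC and 7.92, 67 and 60.8 in L libraries, all EC values above all L values, with a difference of 3.03 ± 0.85 that just missed the threshold (adjusted p = 0.0509). Iapp, islet amyloid polypeptide, was at 4.83, 62, 106 and 22.5 in EC and 0.542, 3.75 and 6.29 in L libraries (adjusted p = 0.0899). Gip and Gast, hormones of the upper gut, had at most a trace, with 2 reads of Gip over the EC libraries and none of Gast.

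Granule proteins and prohormone processing enzymes were higher in EC libraries where they passed. Of 12 listed, 10 passed the filter, 5 were called higher and none lower, with a median of 2.52. Chgb, chromogranin B, was at 4679.5, 6738, 26386 and 82563 CPM in EC and 21.1, 92.4 and 98.3 in L libraries, a difference of 8.10 ± 1.0 (adjusted p = 0.00465). Scg5, the chaperone 7B2 of prohormone convertase 2, was at 31.1, 36.4, 229 and 442 in EC and 2.93, 5.98 and 8.46 in L libraries (4.05 ± 0.93, adjusted p = 0.0265). Pcsk1n, an inhibitor of prohormone convertase 1, was at 66.7, 49.4, 85.5 and 314 in EC and 4.81, 14.1 and 23.9 in L libraries (2.92 ± 0.71, adjusted p = 0.0317). The fifth was Cpe, carboxypeptidase E, with a difference of 2.65 (adjusted p = 0.0494).

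The promoters of 3 genes called higher in EC libraries are printed because each holds the core of a cAMP response element, the letters TGACGT, searched on both strands of the 300 bases from 250 before to 50 after the start. Chromogranin promoters are known for such an element. The sequences are from RefSeq on GRCm38.p6, the assembly of mm10, read 5′ to 3′ on the gene's strand, and capitals mark TGACGT, or TGACGTCA where these 8 bases are present. Chga is at chr12:102554691-102554990 on the plus strand, Chgb at chr2:132781392-132781691 on the plus strand, and H2-Aa, a major histocompatibility complex (MHC) class II gene described below, at chr17:34287774-34288073 on the minus strand.
Chga: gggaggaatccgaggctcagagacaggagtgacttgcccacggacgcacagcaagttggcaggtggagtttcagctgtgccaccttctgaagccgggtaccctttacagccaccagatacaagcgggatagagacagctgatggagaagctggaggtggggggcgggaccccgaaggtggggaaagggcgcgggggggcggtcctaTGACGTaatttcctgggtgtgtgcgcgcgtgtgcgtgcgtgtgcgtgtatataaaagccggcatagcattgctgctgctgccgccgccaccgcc
Chgb: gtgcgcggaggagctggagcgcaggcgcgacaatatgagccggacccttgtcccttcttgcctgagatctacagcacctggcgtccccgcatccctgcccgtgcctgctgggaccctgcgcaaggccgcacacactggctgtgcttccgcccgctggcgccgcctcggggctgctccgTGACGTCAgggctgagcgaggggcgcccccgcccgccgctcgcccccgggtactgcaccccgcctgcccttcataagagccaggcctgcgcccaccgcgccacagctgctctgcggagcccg
H2-Aa: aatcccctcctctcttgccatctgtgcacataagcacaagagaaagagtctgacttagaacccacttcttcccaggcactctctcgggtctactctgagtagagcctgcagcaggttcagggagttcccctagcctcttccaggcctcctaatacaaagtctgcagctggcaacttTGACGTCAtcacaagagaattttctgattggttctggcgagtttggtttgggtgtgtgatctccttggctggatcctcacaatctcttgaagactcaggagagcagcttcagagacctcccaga
In Chga the core was followed by aa and began 44 bases before the start. Chgb and H2-Aa held TGACGTCA, which reads the same on both strands, at 72 and 74 bases before it. TGACGT occurred in 7.51% of the 32851 promoters in the table and in 11.6% of the 11181 promoters of kept genes, and TGACGTCA in 1.79% and 3.05%. Of the 601 promoters of genes called higher in EC libraries, 58 (9.65%) held TGACGT and 17 (2.83%) TGACGTCA, no larger a share than among kept genes. The 3 promoters shown were picked with their motif known and stand for no group, and a match describes the letters only.

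The genes of vesicle docking, priming and fusion followed the granins. Of 30 listed, 25 passed the filter, 12 were called higher in EC libraries and none lower, with a median of 2.63, and 7 of the 12 had passed the filter through EC libraries alone. Snap25, the plasma membrane SNARE of regulated secretion, was at 124, 153, 542 and 798 CPM in EC and 2.1, 5.06 and 4.5 in L libraries, a difference of 6.01 ± 0.68 (adjusted p = 0.00429). Cadps, which primes dense-core vesicles, was at 68.7, 65.1, 277 and 149.7 in EC and 1.92, 4.45 and 2.49 in L libraries (4.95 ± 0.59, adjusted p = 0.00446). Rims2, an active-zone scaffold, was at 13.8, 45.5, 46.1 and 54.8 in EC and 1.55, 0.541 and 1.95 in L libraries (4.02 ± 0.64, adjusted p = 0.00871), and EC library 1 was the low one. Rph3al, a Rab effector on secretory granules, was at 69.4, 68.6, 104 and 121 in EC and 14.9, 15 and 18.4 in L libraries (2.38 ± 0.34, adjusted p = 0.00636). Its EC values lay closer together than those of Snap25. The calcium sensors Syt5, Syt7 and Syt13 were also among the 12, with differences of 3.94, 2.72 and 3.80 (adjusted p = 0.0153, 0.0388 and 0.0223). Leaving out EC libraries 1 and 2, 20 of the 25 were called higher, against 25.2% of all kept genes.

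Transcription factors of the enteroendocrine lineage gave 11 genes called higher and none lower among 19 that passed the filter, of 22 listed, with a median of 3.44. Of the 11, 8 had passed through EC libraries alone, which fixes their direction, and Neurod1, Glis3 and Mlxipl had not. Pax4, a paired-box factor of endocrine commitment, was at 31.5, 52.8, 122 and 111 CPM in EC and 0.976, 1.34 and 2.46 in L libraries, a difference of 4.80 ± 0.60 (adjusted p = 0.00482). Nkx2-2, a homeodomain factor required for EC-cell fate in the mouse, was at 40.1, 19.2, 104 and 116 in EC and 0.217, 0.445 and 1.18 in L libraries (5.17 ± 0.73, adjusted p = 0.00598). Insm1, a zinc-finger repressor of endocrine cells, was at 17, 38, 69 and 97.4 in EC and 0.0362, 0.763 and 1.28 in L libraries (4.87 ± 0.71, adjusted p = 0.00644). In all 3 the L libraries were at 2.46 CPM or less and EC libraries 3 and 4 were the highest. Neurod1, Sox4, Runx1t1, Glis3, St18 and Mlxipl were the other members called beside Lmx1a and Fev, with differences from 1.95 (Mlxipl) to 5.02 (Neurod1).

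Of 15 receptors for nutrients and microbial metabolites, 8 passed the filter, 3 were called higher in EC libraries and none lower, with a median of -0.16. Of the 3, 2 had passed through EC libraries alone. Olfr78, an olfactory-family receptor known to respond to short-chain fatty acids, was at 93.7, 100.3, 379.8 and 388 CPM in EC and 2.06, 2.42 and 3.51 in L libraries, a difference of 5.75 ± 0.60 (adjusted p = 0.00362). Olfr558, a relative reported to respond to branched short-chain fatty acids such as isovalerate, was at 1.25, 41.1, 169 and 208 in EC and 0, 0 and 0.16 in L libraries (5.35 ± 1.44, adjusted p = 0.0441). EC library 1 held little Olfr558 and the L libraries almost none. Ffar2, a free fatty acid receptor, was at 66.4, 49.4, 249 and 293 in EC and 4.74, 18.4 and 14.1 in L libraries (3.40 ± 0.73, adjusted p = 0.0209). Ffar4, a receptor for long-chain fatty acids, was at 11.6, 3.91, 11.7 and 40.2 in EC and 29.1, 53.1 and 38.1 in L libraries and did not pass (adjusted p = 0.171).

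Among 24 receptors for transmitters and hormones, 9 passed the filter, 1 was called higher and 1 lower, too few to set apart from the 5.82% and 6.64% of all kept genes. Each had passed the filter through 1 group alone, which fixes its direction. Npy1r, a receptor for neuropeptide Y and peptide YY, was at 21.8, 15.8, 31.3 and 122 CPM in EC and 1.95, 4.32 and 1.31 in L libraries, a difference of 3.41 ± 0.76 (adjusted p = 0.0238). Ptger3, a prostaglandin E receptor, was at 0, 0.356, 3.17 and 1.62 in EC and 14.8, 9.38 and 10 in L libraries (-2.64 ± 0.69, adjusted p = 0.041), and edgeR did not call it (adjusted p = 0.101). Htr4, a serotonin receptor, was at 0, 0, 5.54 and 1.62 in EC and 10.6, 13.3 and 10.6 in L libraries, apart and not past the test (-2.61 ± 0.79, adjusted p = 0.0649). Glp1r, the receptor for glucagon-like peptide 1, was at 9.66, 0.178, 6.01 and 8.23 in EC and 0.217, 0.70 and 0.575 in L libraries, with EC library 2 among the L values (adjusted p = 0.188). The list's median was -0.73, and 0.94 without EC libraries 1 and 2.

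Of 24 ion channels, 12 passed the filter and 2 were called, both higher in EC libraries, with a median of 1.68. With 12.5% of all kept genes called, 2 of 12 is near the background, and 5 of the 12 had passed through EC libraries alone. Scn3a, a voltage-gated sodium channel, was at 31.3, 62, 318 and 223 CPM in EC and 1.92, 4.45 and 5.43 in L libraries, a difference of 4.55 ± 0.80 (adjusted p = 0.0113). Cacna1a, the P/Q-type calcium channel, was at 21.1, 9.24, 63.1 and 59.8 in EC and 1.27, 1.24 and 1.15 in L libraries (3.79 ± 0.75, adjusted p = 0.0165). Kcnh6, a potassium channel, was at 29.7, 65.1, 165 and 138 in EC and 14.1, 25.9 and 19.8 in L libraries, apart and close to the threshold (2.02 ± 0.59, adjusted p = 0.0574).

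The 12 largest differences towards EC libraries, among called genes whose EC mean reached 50 CPM, held 6 genes of none of the lists. Of the 6, Wif1, Slc38a11, Cryba2 and Scgb1a1 had passed the filter through EC libraries alone, which fixes their direction. Wif1, a secreted Wnt inhibitor, was at 77.1, 182, 451 and 986 CPM in EC and 0.145, 2.29 and 0.703 in L libraries, a difference of 7.25 ± 0.83 (adjusted p = 0.00432). Slc38a11, of the SLC38 amino acid transporter family, was at 77.5, 122, 709.6 and 844 in EC and 0.687, 0.636 and 1.12 in L libraries (7.26 ± 0.85, adjusted p = 0.00445). Cryba2, a crystallin gene also read in endocrine cells, was at 61.5, 77.3, 239.9 and 354 in EC and 0.687, 0.572 and 0.958 in L libraries (6.37 ± 0.67, adjusted p = 0.00362). These 3 had the order of Tph1 within the EC group, with libraries 3 and 4 highest. Scgb1a1, a secretoglobin best known from airway club cells, was at 151, 429, 15 and 835 in EC and 0.47, 0 and 0.575 in L libraries (7.02 ± 1.19, adjusted p = 0.00998), and EC library 3 was the lowest of the 4. H2-Aa, which encodes an MHC class II chain, was at 300.4, 615, 269 and 329.7 in EC and 1.55, 3.78 and 6.68 in L libraries (6.30 ± 0.46, adjusted p = 0.00112). Its partner Cd74, the invariant chain, was at 1359, 2505, 1051 and 1305 in EC and 9.11, 40.8 and 36.4 in L libraries (5.87 ± 0.52, adjusted p = 0.00234). In both genes EC library 2 was the highest and libraries 1, 3 and 4 lay close together, unlike the order seen for Tph1, and without libraries 1 and 2 the differences were 6.04 ± 0.49 and 5.54 ± 0.64.

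Immune-cell markers are given beside these MHC class II genes. Of 18 listed, 1 passed the filter (Lyz2, lysozyme of macrophages) and it was not called (adjusted p = 0.534). Their summed share of reads was 0.00141%, 0.00741%, 0.00267% and 0.0198% in the EC libraries and 0.00145%, 0.000922% and 0.00490% in the L libraries. Ptprc, the pan-leukocyte CD45 gene, was at 1.43, 1.07, 2.85 and 0.881 CPM in EC and 1.05, 0.127 and 3.45 in L libraries. The B-cell gene Cd79a and the T-cell gene Cd3e were read in EC library 3 alone among the EC libraries. Lyz2 itself was at 1.61, 35.7, 7.12 and 168 in EC and 5.5, 1.56 and 21.8 in L libraries. Coro1a, a leukocyte actin regulator, was at 2.15, 26, 4.59 and 6.9 in EC and 0.217, 1.05 and 4.18 in L libraries, and the B-cell gene Ms4a1 at 0, 4.09, 0.791 and 0.147 and 0.615, 1.08 and 0.319. Coro1a and Ms4a1 were highest in EC library 2, as H2-Aa and Cd74 were, while Lyz2 was highest in EC library 4 and Ptprc highest among the EC libraries in 3. The part of such cells in the H2-Aa and Cd74 differences was not tested.

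The 12 largest differences towards L libraries held 3 goblet-cell markers, Fcgbp, Clca1 and Zg16, and 1 colonocyte marker, Slc37a2. Of 16 goblet-cell markers all passed the filter, 7 were called lower in EC libraries and none higher, with a median of -3.31. Fcgbp, a mucus protein that binds IgG Fc, was at 0, 43.6, 35.9 and 0 CPM in EC and 899.9, 2954 and 2427 in L libraries, a difference of -8.19 ± 1.44 (adjusted p = 0.0113). Clca1, a secreted metalloprotease of goblet cells, was at 1.43, 24.5, 1030.4 and 14 in EC and 6814, 12216 and 8992 in L libraries (-8.18 ± 1.66, adjusted p = 0.0175). EC library 3 stood far above the other 3 EC libraries for Clca1 and below every L library. Zg16, a mucus lectin, was at 23.1, 119, 335 and 4.85 in EC and 1460, 2848 and 2293 in L libraries (-5.44 ± 1.18, adjusted p = 0.0221). Tff3, trefoil factor 3, was at 32.9, 95.5, 209 and 46.3 in EC and 934, 1642 and 1117 in L libraries (-3.99 ± 0.58, adjusted p = 0.00646), and Atoh1, the secretory lineage factor, at 8.59, 12.8, 36.6 and 17.2 and 71.2, 219.7 and 129 (-2.88 ± 0.56, adjusted p = 0.0153). edgeR did not call Fcgbp, Clca1 or Zg16 (adjusted p = 0.055, 0.105 and 0.0535). The summed share of the 16 was 0.0549%, 0.0891%, 0.942% and 0.0935% in EC libraries and 1.29%, 2.60% and 2.00% in L libraries.

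Of 20 colonocyte markers, 19 passed the filter, 7 were called lower in EC libraries and none higher, with a median of -2.28. Among all kept genes 6.64% were called lower. Of the 7, Slc37a2 and Scnn1b had passed the filter through L libraries alone, which fixes their direction. Car2, carbonic anhydrase 2, was at 237, 372, 348 and 144 CPM in EC and 2340.4, 1646 and 1489 in L libraries, a difference of -2.79 ± 0.38 (adjusted p = 0.00574). Slc37a2, a sugar-phosphate antiporter, was at 0, 4.27, 3.32 and 0.147 in EC and 238, 243 and 117 in L libraries (-6.39 ± 0.74, adjusted p = 0.00445). Scnn1b, the beta subunit of the epithelial sodium channel, was at 0.358, 0, 1.74 and 0 in EC and 14.9, 23.8 and 17.3 in L libraries (-3.80 ± 0.63, adjusted p = 0.00954). For these 3 genes EC libraries 1 and 2 did not stand together above 3 and 4, unlike for Car1. Cdhr5, a brush border cadherin, was at 461, 693, 242 and 384 in EC and 1607, 1639 and 1859.6 in L libraries (-2.03 ± 0.37, adjusted p = 0.0126). The summed share of the 20 was 3.45%, 3.71%, 1.07% and 0.605% in EC libraries and 6.13%, 5.94% and 5.76% in L libraries. Without EC libraries 1 and 2, 17 of the 19 were called lower, against 17.4% of all kept genes. In L libraries the L-cell hormones took 0.0598% to 0.289% of reads, on a scale that is not per length, and the part of other cells in any EC to L difference was not tested.

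The other genes among the largest 12 differences towards L libraries had varied roles. Best2 and Rasd2 had passed the filter through L libraries alone, which fixes their direction. Best2, a bestrophin anion channel of colonic goblet cells, was at 0, 0.178, 2.37 and 0 CPM in EC and 93.8, 350.1 and 200 in L libraries, a difference of -7.06 ± 0.70 (adjusted p = 0.00334). Mptx1, a mucosal pentraxin, was at 11.3, 8.18, 2573 and 19.2 in EC and 3236, 8428 and 5756 in L libraries (-6.78 ± 1.75, adjusted p = 0.039). Sval1, a seminal vesicle antigen-like protein, was at 0, 0, 89.1 and 0.147 in EC and 456, 1011 and 620.3 in L libraries (-7.69 ± 1.49, adjusted p = 0.0153). EC library 3 again held most of the EC reads of Mptx1 and Sval1, and neither edgeR (adjusted p = 0.278 and 0.141) nor DESeq2 (adjusted p = 0.186 and 0.162) called these 2 genes. St6gal1, a sialyltransferase, was at 0, 1.24, 19.1 and 0.294 in EC and 97.2, 370.2 and 246 in L libraries (-6.23 ± 1.04, adjusted p = 0.00956). Ggt1, a gamma-glutamyltransferase, was at 7.87, 0, 0.633 and 0 in EC and 92.3, 91 and 101 in L libraries (-5.62 ± 0.83, adjusted p = 0.00665). Sycn, the granule protein syncollin, was at 39.7, 6.22, 77.1 and 0 in EC and 841, 534 and 509.7 in L libraries (-5.64 ± 1.29, adjusted p = 0.0258). These 3 were present in some EC libraries and at or near 0 in others. Rasd2, a Ras-like GTPase, was at 0.537, 0.889, 0.791 and 0.294 in EC and 28.6, 129 and 76 in L libraries (-5.37 ± 0.65, adjusted p = 0.00446), and Atp12a, the nongastric proton-potassium pump, at 23.1, 0.711, 5.38 and 0 and 375, 83.6 and 96.6 (-5.18 ± 1.09, adjusted p = 0.0202). edgeR did not call Sycn, Ggt1 or Atp12a either (adjusted p = 0.0813, 0.0552 and 0.0879), and DESeq2 gave no adjusted p for Ggt1 and Atp12a.

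**Figure D3:**
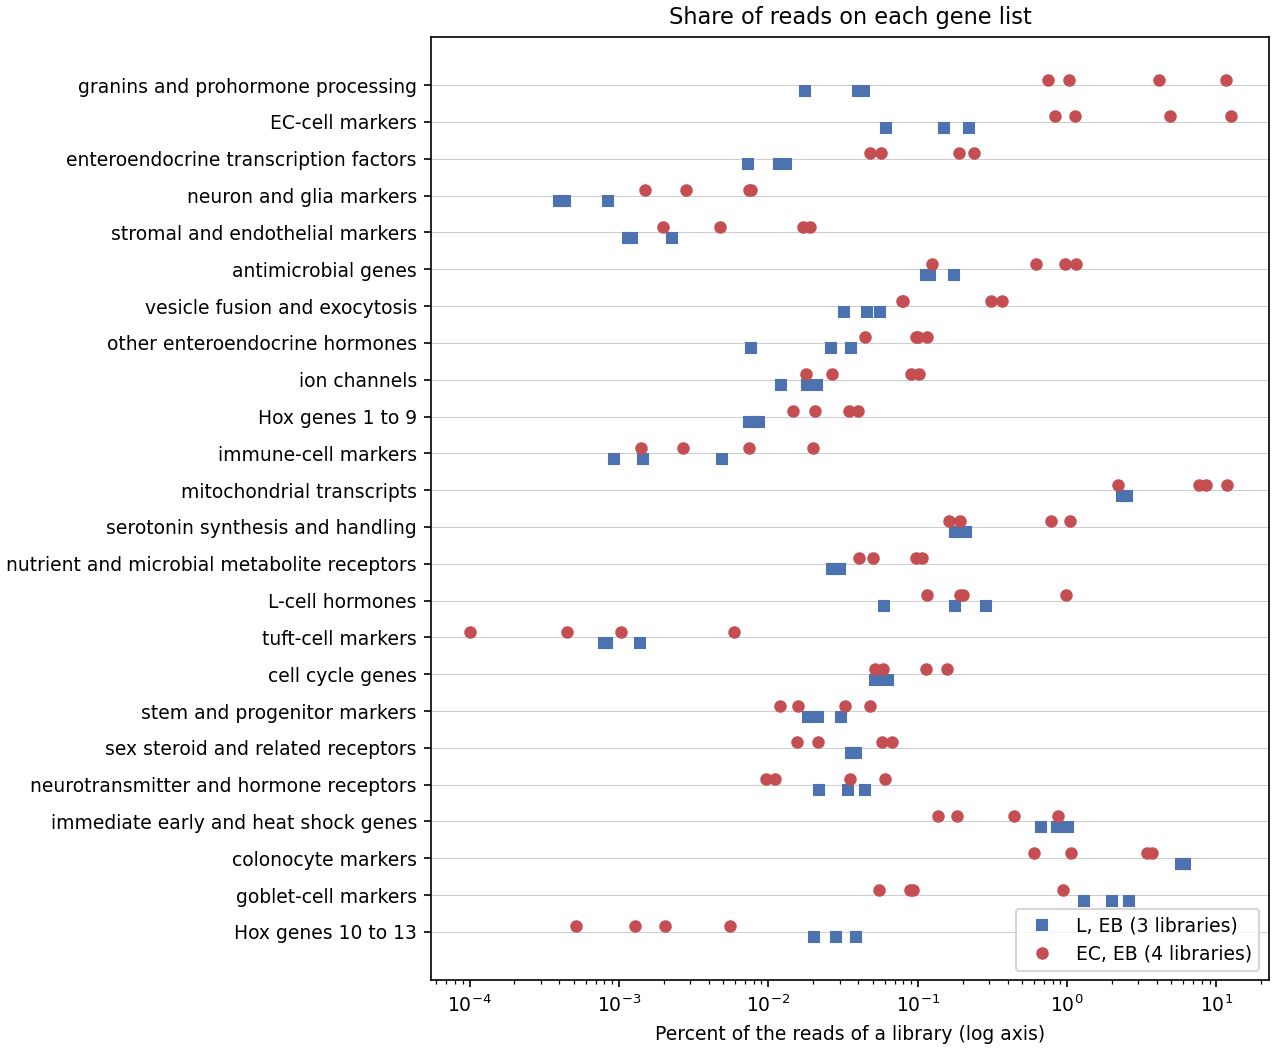
Percent of a library's reads (horizontal, log axis) on each of 24 gene lists, with a point for each EC (circles) and L (squares) library under EB. The EC and L points separate for EC-cell markers, granins, colonocyte markers, goblet-cell markers and Hox genes 10 to 13, and overlap for the L-cell hormones.

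Summed shares did not overlap between the groups for 11 of the 24 lists, each with the smallest exact two-sided permutation p of 0.0571, or 0.125 after adjustment over the 24. EC-cell markers took 0.827%, 1.13%, 4.91% and 12.5% of reads in EC libraries and 0.0610%, 0.222% and 0.151% in L libraries. Since no list can reach an adjusted p under 0.05 in this design, the shares are descriptions.

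Hox genes, whose expression along the gut follows position from front to rear, were listed by paralogue number, and no test compared the number groups. In the numbers 1 to 9, 27 genes were listed, 9 passed the filter, 2 were called higher in EC libraries and none lower, with a median of 1.57, and both had passed through EC libraries alone. Hoxb3 was at 10.4, 5.51, 11.6 and 12.3 CPM in EC and 0.94, 0.477 and 0.703 in L libraries, a difference of 2.64 ± 0.58 (adjusted p = 0.0226). Hoxb5 was at 12.2, 8.53, 15.5 and 23.4 in EC and 2.1, 1.65 and 2.36 in L libraries (2.31 ± 0.58, adjusted p = 0.0347). For both genes all EC libraries, 1 and 2 included, were above all L libraries. Of the 12 genes numbered 10 to 13, 3 passed the filter and 2 were called, both lower in EC libraries. Among all kept genes 6.64% were called lower. Of the 2, Hoxd13 had passed through L libraries alone, which fixes its direction. Hoxb13, active in the rear colon and rectum, was at 17.4, 10.7, 39.6 and 0 in EC and 348, 247 and 179 in L libraries (-4.69 ± 1.09, adjusted p = 0.0265), and edgeR did not call it (adjusted p = 0.0701). Hoxd13 had no read in any EC library and was at 12.3, 17.7 and 7.7 in L libraries (adjusted p = 0.00814), at least 102-fold lower in EC libraries against a floor of 3 reads over the 4. Hoxd10 and Hoxa13 also had no EC read, and Hoxd12 was read in EC library 3 alone (0.633 CPM) against 7.77, 9.28 and 3.35 in L libraries. In vehicle libraries Hoxd13 was at 0 in both EC libraries and at 1.38 and 2.33 in the L libraries, and Hoxb13 was at 6.2 and 49.2 in EC and 37.6 and 56.2 in L libraries. None of the 4 Hox calls held with any L library left out. The labels name the colon for both cell types and no region of it.

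**Figure D4:**
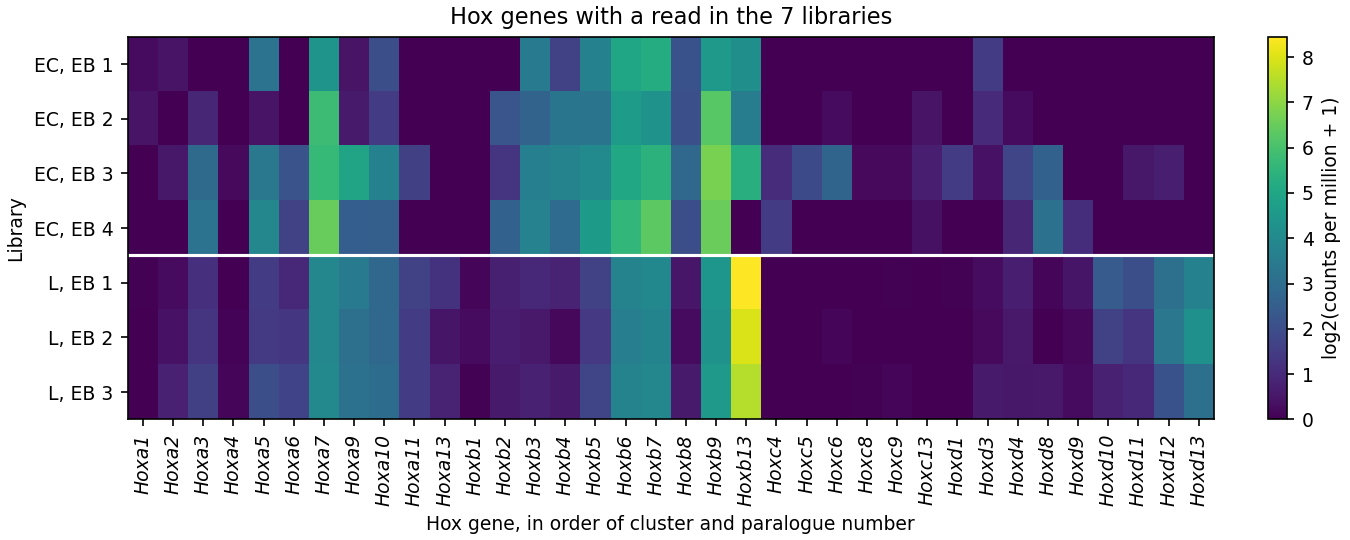
Log2(CPM + 1) of Hox genes with a read (columns, by cluster and number) in each library under EB (rows). The L rows are bright at Hoxb13 and show Hoxd10 to Hoxd13, while the EC rows are brighter at Hoxb3 to Hoxb7 and dark at Hoxd13.

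Mitochondrially encoded transcripts were higher in EC libraries where they passed the test. Of 13 listed, 11 passed the filter and 6 were called higher, none lower, with a median of 2.31. Of the 6, 1 (ND3) had passed the filter through EC libraries alone, which fixes its direction. ND2, a subunit of respiratory complex I, was at 4276, 3134, 3128 and 812 CPM in EC and 261, 258 and 275 in L libraries, a difference of 3.18 ± 0.54 (adjusted p = 0.00983). COX2, a subunit of cytochrome oxidase, was at 80.5, 63.3, 39.2 and 25.9 in EC and 7.66, 7.73 and 9.01 in L libraries (2.42 ± 0.49, adjusted p = 0.0173). EC library 4, the lowest of the EC libraries for both, was still above the L libraries. The summed share was 11.8%, 7.65%, 8.48% and 2.19% in EC and 2.33%, 2.43% and 2.52% in L libraries, so EC library 4 fell below the L range for the list as a whole. Leaving mitochondrial reads out of the totals gave EC-cell markers a mean share of 5.29% in EC and 0.149% in L libraries, against 4.83% and 0.145% with them.

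Of 14 immediate early and heat shock genes, which respond fast to handling and to stimuli, all passed the filter, 3 were called lower in EC libraries and none higher, with a median of -1.28. Dusp1, a phosphatase that switches off MAP kinases, was at 29, 26.1, 34.3 and 158 CPM in EC and 683, 1195 and 1344 in L libraries, a difference of -4.48 ± 0.61 (adjusted p = 0.00574). Atf3, a stress-induced factor, was at 18.4, 101, 44.9 and 97.7 in EC and 288, 372 and 614 in L libraries (-2.89 ± 0.59, adjusted p = 0.0175), and Junb, an AP-1 subunit, at 97, 183, 185 and 238 and 428, 582 and 632 (-1.69 ± 0.34, adjusted p = 0.0173). Egr1, also of this class, was at 11.4, 28.3, 153 and 492 in EC and 596, 1064 and 1169.6 in L libraries, apart but not past the test (-3.64 ± 1.10, adjusted p = 0.064). Without EC libraries 1 and 2 the list's median was 0.06, and 4 genes were called higher and 3 lower. Both counts of the 14 are near the 25.2% and 17.4% of all kept genes called higher and lower there.

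Antimicrobial genes had 7 of 10 members past the filter, 2 called higher in EC libraries and none lower, with a median of 2.19, where 5.82% of all kept genes were called higher. Of the 2, Nos2 had passed the filter through EC libraries alone. Only 1 of the 7 was called higher without EC libraries 1 and 2, against 25.2% of all kept genes. Nos2, inducible nitric oxide synthase, was at 10, 9.07, 7.91 and 21.9 CPM in EC and 0.253, 0.827 and 0 in L libraries, a difference of 3.22 ± 0.62 (adjusted p = 0.0153), and edgeR did not call it (adjusted p = 0.0552). Duox2, which makes hydrogen peroxide at the epithelial surface, was at 91.6, 104, 34.7 and 102 in EC and 10.8, 29 and 10.4 in L libraries (2.28 ± 0.53, adjusted p = 0.027). EC library 3 was the lowest EC library for both genes. Duoxa2, its maturation factor, was at 74.8, 53.3, 29.1 and 49.4 in EC and 6.15, 34.8 and 4.12 in L libraries, with EC library 3 below L library 2 (adjusted p = 0.0731). Reg3g, a lectin against Gram-positive bacteria that can share reads with its near copy Reg3b, was at 2035, 2182, 834 and 142 in EC and 188, 133 and 111 in L libraries (adjusted p = 0.0823).

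Receptors for oestrogens were read at low levels in both groups. Of 9 sex steroid and related receptors, 3 passed the filter and none was called. Esr1, oestrogen receptor alpha, was at 2.5, 0.178, 5.06 and 0.147 CPM in EC and 2.93, 1.91 and 4.82 in L libraries. Esr2, oestrogen receptor beta, was at 0, 0, 0.633 and 0 in EC and 1.81, 0.954 and 0.287 in L libraries. Gper1, a membrane oestrogen receptor, was at 0, 0, 14.4 and 8.81 in EC and 0.325, 0.859 and 0.351 in L libraries. The groups overlapped for all 3, and the 2 EC libraries with the highest Tph1 were those with Gper1 reads. Pgr, the progesterone receptor, was at 10.2, 0, 1.11 and 0 in EC and 0.398, 0.0636 and 0.192 in L libraries. Of the 3 that passed the filter, Nr3c2, the mineralocorticoid receptor, was at 480, 403, 71.4 and 100.3 in EC and 200, 171 and 162 in L libraries, with EC libraries 1 and 2 above and 3 and 4 below the L range (adjusted p = 0.918). The glucocorticoid receptor Nr3c1 and the oestrogen-related receptor Esrra had adjusted p of 0.595 and 0.129.

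Lists of dividing and of other cells gave no call over the 7 libraries. Of 30 cell cycle genes, 28 passed the filter, with a median of 0.36, and of 13 stem and progenitor markers 9 passed, with a median of -0.14. Sox9, a progenitor factor also found in EC cells, was at 35.6, 36.1, 31.5 and 37.5 CPM in EC and 37.9, 47.6 and 42.5 in L libraries (adjusted p = 0.589). Ube2c, of the dividing cell, was at 8.23, 12.6, 30.5 and 44.5 in EC and 7.01, 6.39 and 6.61 in L libraries (adjusted p = 0.184). Without EC libraries 1 and 2, 15 of the 28 cell cycle genes were called higher, against 25.2% of all kept genes. No tuft-cell marker of 12 passed the filter, and their summed share reached 0.00590% in EC library 3 and at most 0.00137% in the other 6 libraries. Of 14 stromal and endothelial markers, 2 passed the filter. Vim, vimentin, was at 2.33, 12.4, 144 and 106 in EC and 2.46, 6.8 and 17 in L libraries (adjusted p = 0.371), and Pecam1, an endothelial adhesion protein, was at 5.9, 3.38, 14.4 and 35.5 and 5.1, 3.4 and 2.56 (adjusted p = 0.305). Both were called higher without EC libraries 1 and 2 (adjusted p = 0.00816 and 0.0158). Of the 12 below the filter, the highest in EC libraries were Des at 22.8 and the endothelial Cdh5 at 22.3 in library 4 and Dcn at 11.4 and Acta2 at 10.7 in library 2, while the L libraries of these 4 stayed under 1 CPM. Of 9 neuron and glia markers, 2 passed the filter. Ret, a receptor kinase also present in enteroendocrine cells, was at 9.48, 1.24, 56 and 57.4 in EC and 1.12, 1.18 and 3.7 in L libraries (adjusted p = 0.174), and Sox10, which defines glia, had no read in any of the 7.

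The order of the EC libraries shaped which genes tracked one another. Over the 7 libraries, the log2 values most like those of Tph1 were those of Chga (Pearson r = 0.998), Celf3, Chgb, Camk2n1 and Ifitm2, given as a description since 2 separated groups produce high r. Celf3, a neuronal RNA-binding protein, was at 65.7, 76.1, 277 and 229 CPM in EC and 1.48, 3.69 and 5.56 in L libraries. Most like Gcg were Slc29a4 (r = 0.988), Maml3, Mfsd6, Iapp and Slc25a23. Slc29a4, a plasma membrane monoamine transporter, was at 17.7, 56.9, 108 and 46.1 in EC and 7.41, 20.8 and 34.4 in L libraries, highest in EC library 3 as Gcg was. Most like Pyy were Etv1 (r = 0.975), Arfgef3, Casd1, Znrf1 and Ift46, and Etv1, an ETS factor, was at 4.83, 2.67, 76 and 6.9 in EC and 2.31, 8.33 and 12.9 in L libraries. Genes like Pyy and Gcg crossed the 2 groups where those like Tph1 separated them, which follows from picking them by their likeness to these markers.

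**Figure D5:**
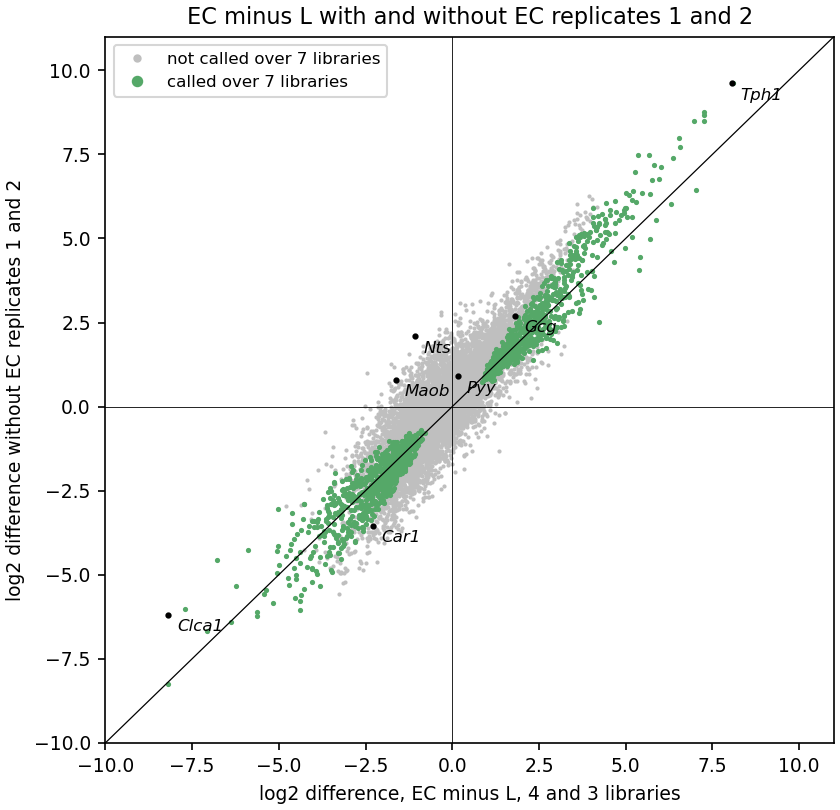
Log2 difference between EC and L libraries without EC libraries 1 and 2 (vertical) against that over all 7 libraries (horizontal), with the line of equality. Green points are the 1358 genes called over 7 libraries, none of which could change sign because their groups did not overlap. Nts and Maob, not called, change sign.

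A final comparison asked whether the difference between EC and L cells under EB departed from that under vehicle, over all 11 libraries. By limma no gene passed, with 595 genes at an unadjusted p under 0.05 and a smallest adjusted p of 0.738, and the share called was 0%. edgeR called 0 and DESeq2 26, and without EC vehicle library 1 limma called 76. The median of this difference of differences was -0.44, and -0.01 with TMM factors, so its size for a single gene depends on the scaling. The 5 smallest p-values belonged to Pla2g3, a secreted phospholipase (4.60 ± 0.96), Fads2, a fatty acid desaturase (-2.69 ± 0.60), Fnta, a farnesyltransferase subunit (-2.38 ± 0.56), 4931406C07Rik (2.18 ± 0.52) and Med26, a Mediator subunit (-4.30 ± 1.08), each with an adjusted p of 0.738. For Tph1 the vehicle values were 6997 and 8495 CPM in EC and 1.1 and 0.959 in L libraries, and the difference of differences was -3.83 ± 1.48 (adjusted p = 0.738). Pyy was at 1107 and 8887 in vehicle EC libraries and 267 and 82 in vehicle L libraries, with -4.22 ± 1.41 (adjusted p = 0.738). Both EC vehicle libraries had Tph1 at least as high as EC libraries 3 and 4 under EB, so EC libraries 1 and 2 under EB stand apart from the vehicle libraries too.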

How the data were processed

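RNA was read from full-length cDNA made with a SMART-Seq kit and tagmented into libraries, per the labels' protocols. The submitters' processing notes list STAR, featureCounts and DESeq2 and the build mm10, with no version. Deposited by the authors was a normalised count (unit: signal) for every gene, in one table for EC cells and one for L cells, each scaled separately. Every value above 0 was a whole multiple of the column's smallest value (100% within 0.001 read), so each column was divided by it to give reads, then scaled to counts per 1000000 reads (CPM) and joined by symbol over 49997 genes. Totals were several times lower in EC than in L libraries, which makes their low values less precise.

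EC and L libraries were compared by limma 3.58.1 (R 4.3.3), allowing a trend of variance with level, on log2(CPM + 1). A Benjamini-Hochberg adjusted p under 0.05 was a call, over the 10898 genes at 5 or more CPM in 3 or more of the 7 libraries. The method was tested on simulated data. These gave a gene the same spread beyond counting noise in EC and L libraries, so the unequal spread of the real groups was not tested. Shares and ratios used exact two-sided permutation tests over libraries. Alternatives were pseudocounts of 0.5 and 4, no filter and a filter at 20 CPM, TMM, median-ratio and quantile scaling, the deposited values, edgeR 4.0.16, DESeq2 1.42.0, robust and weighted fits, a replicate block, a log2 threshold of 1, libraries left out and shares without mitochondrial reads. Genes named were the markers, the L-cell hormone, serotonin and EC-cell lists, up to 12 called per direction with a mean of at least 50 CPM and separated groups, up to 4 of smallest p from each other list, 5 of smallest p against vehicle, 5 sex steroid receptors and the 5 genes most like Tph1, Pyy and Gcg. Other members of a list are named from its calls, and some genes the rule names are not reported here. The members, gene lists and rules were chosen with earlier results of these data known. Promoters came from RefSeq, with 8665 kept genes matched by symbol.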

Additional observations from a re-analysis of the deposited data

Results flagged for a closer look

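Each result here has 1 of the 4 EC libraries under EB far from the other 3: its gap to the nearest, divided by the group's range, exceeded Dixon's 95% critical value for 4 samples. Of 162 groups of values examined 17 exceeded it, where chance alone gives about 1 in 20, and the same libraries recur in all of them, so the results are not independent. The L group, with 3 libraries, was not examined.

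EC library 3 was the high one for most. The ratio was 1 for Esr2, Ppy, Slc6a4 and Ucn3, each read in that library alone of the EC group. It was 0.97 for Sval1, 0.913 for Med26, 0.865 for Best2 and 0.86 for Mptx1, which were low or at 0 in the other EC libraries. In the same library the share of reads on goblet-cell markers gave 0.956, that on L-cell hormones 0.902 and that on tuft-cell markers 0.838. It also had the most genes with a read, 30288 against 16014 to 17110 in the other EC libraries. EC library 3 was the low one for Duox2 (0.884).

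EC library 4 was the high one for Dusp1 (0.851) and the low one for ND3 (0.873). EC library 1 was the low one for Rims2 (0.863), and EC library 2 alone held reads of Trpa1 (1).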

How the results depend on the processing

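Between EC and L libraries under EB, 1358 genes were called. Leaving out 1 library gave 124 to 2007, with 75 to 1079 higher and 49 to 928 lower in EC libraries, and the low counts came from leaving out an L library, which leaves 2. Without EC libraries 1 and 2 together the counts were 4650, 2749 and 1901. Array weights gave 3099, 1459 and 1640, and DESeq2 2519 with 1616 higher. edgeR called 433 lower, quantile scaling 1022 higher, and no filter 354 with 191 higher and 163 lower. The deposited values, scaled apart in each table, gave 7740 with 142 higher and 7598 lower. Against vehicle, counts ran from 0 to 76 with a library left out, and DESeq2 called 26. The replicate block gave 1161 calls. Deviations of same-numbered EC and L libraries correlated at 0.18, -0.11 and 0.07, and those of other pairs at -0.22 to 0.19. These correlations cannot show whether same-numbered libraries share more than the number. By the labels, EC and L cells come from different mouse lines.

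Shares of reads that changed sign with a library left out differed by -0.00600 to 0.286 percentage points for L-cell hormones, -0.0148 to 0.00220 for transmitter and hormone receptors, -0.00555 to 0.0116 for steroid receptors, -0.00343 to 0.00848 for stem markers and -0.000478 to 0.00146 for tuft markers. Without EC libraries 1 and 2, transmitter and hormone receptors were at 0.0145 and steroid receptors at -0.0185.

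Of the called genes named, 61 were recomputed under the alternatives, and none of these 61 changed sign. With libraries left out this was fixed in advance, since the groups of every called gene did not overlap. Among the uncalled, log2 differences changed sign with the deposited values for Adm (-0.97), Ephb2 (-1.27), Gcg (-0.31), Gch1 (-1.02), Hoxb6 (-0.72), Kcnh6 (-0.058), Lyz2 (-0.61), Mcm5 (-1.13), Nr3c2 (-2.0), Pcbd1 (-0.88), Pecam1 (-0.61), Pts (-1.85), Pyy (-1.96), Qdpr (-1.90), Tubb5 (-0.61), Ube2c (-0.59) and Vim (-0.14). They did so with DESeq2 for Adra2a (0.31), Insl5 (1.07) and Nts (0.83), and with edgeR for the same genes (0.27, 1.06 and 0.82). Array weights gave Hoxa10 0.045, Insl5 0.35, Nr3c2 -0.45 and Nts 0.30. Quantile scaling gave Insl5 0.038, and the replicate block Insl5 0.26, Nr3c1 0.031 and Qdpr -0.16. Leaving out EC libraries 1 and 2 gave Hoxa10 0.23, Maob 0.80, Nr3c2 -1.05, Nts 2.09, Reg4 0.024 and Slc12a2 0.45. With 1 library left out, Pyy ran from -0.45 to 0.60, Insl5 from -1.50 to 0.56, Nts from -2.30 to 0.68, Nr3c1 from -0.67 to 0.031, Nr3c2 from -0.31 to 0.60 and Qdpr from -0.16 to 0.54. The cause of these changes was not tested. Depth limits low transcripts most in the EC libraries, which hold 5589886 to 6808311 reads.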
